A study of Gallus gallus with 18 samples.

Results

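The SOX genes other than *SOX9* were followed in chicken retinal pigment epithelium (RPE), the pigmented layer behind the neural retina. The 10 genes were taken by symbol from a table of 18336 genes, and fall into a progenitor class (*SOX2*, *SOX3*, *SOX21*), a neuronal class (*SOX4*, *SOX11*) and other classes (*SOX8*, *SOX10*, *SOX5*, *SOX6*, *SOX13*). All 10 passed the filter on low values. Bulk RNA-seq was performed on 6 groups of 3 libraries: E5 RPE at 6 h post-retinectomy with FGF2 (6hPR + FGF2), E5 RPE at 6 h post-retinectomy without FGF2 (6hPR), E5 developing RPE, and the same 3 conditions at E4. E5 is embryonic day 5 at Hamburger Hamilton stage 26, and E4 is embryonic day 4 at stage 24. Retinectomy is the surgical removal of the neural retina. FGF2 was given on heparin beads placed in the eye cup during surgery, and whether the 6hPR eyes received a bead without FGF2 is not given in the sources used here. Each library pooled 3 RPE sheets, 1 eye per embryo, so n = 3 counts pools. At collection the neural retina was peeled off the sheets and the outer mesenchyme debrided. In developing eyes the retina was in place until then, whereas in the surgery groups it had been removed 6 h earlier. The labels name White Leghorn eggs, whereas the methods name SPAFAS eggs for the sequencing.

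SOX proteins are transcription factors with an HMG box that bends DNA, and most act together with a partner factor. *SOX2* and *SOX3* (SoxB1) maintain neural progenitors, whereas *SOX21* (SoxB2) is a repressor that counteracts them. *SOX4* and *SOX11* (SoxC) promote neuronal differentiation and in mice are required for retinal ganglion cells, but are also widely expressed in mesenchyme. *SOX8* and *SOX10* (SoxE) act in the neural crest, where *SOX10* activates the pigment cell regulator *MITF* in melanocytes, and *SOX5*, *SOX6* and *SOX13* (SoxD) lack an activation domain of their own and in cartilage work beside SoxE factors. In the chicken, FGF2 turns RPE into neural retina when given at E4, a competence that is lost by E5, and the comparisons ask how each SOX gene follows stage, retinectomy and FGF2.

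Values below are normalized counts, which are reads divided by the size factor of the library. Reads on genes came to 50.7 to 73.0 M (megareads) per library. Fold changes are log2 values fitted with limma on log2(normalized count + 0.5), with the SE of the fit. The threshold for a call was 0.05 for the p value adjusted after Benjamini-Hochberg over 18287 genes. The p values rest on the spread between pools, estimated for each gene from all 6 groups together. Each gene thus had the same SE in all 9 pairwise comparisons, although the groups varied unequally. Within-group SDs on the log2 scale, as medians across genes, ran from 0.092 in E5 6hPR + FGF2 to 0.257 in E5 developing RPE. A p value from this fit therefore does not measure the spread of only the groups compared. Since the tissue was sequenced in bulk, fewer cells of a type and less RNA per cell cannot be told apart. All 9 RPE markers averaged at least 50 normalized counts, and *OTX2* ran from 15180 to 32281. All 9 markers of mesenchyme and cartilage, 6 of endothelium and 6 of erythrocytes also reached 50, so this limit does not tell RPE from other tissue. In E4 6hPR the summed erythrocyte markers were at 794803 to 1.23e+06, above the RPE markers at 478458 to 760763. In E5 6hPR they were at 344216 to 449023, below the RPE markers at 1.28e+06 to 1.53e+06. Some libraries stood apart. For 11 of 11 retinal neuron markers, E5 developing replicate 2 was the highest library, with a summed level of 22352 against 6513 and 3623 in replicates 1 and 3. Outside its own group (mean r = 0.975 across genes), E4 6hPR replicate 2 was closest to the E4 6hPR + FGF2 libraries (0.969). Replicates 1 and 3 of E4 6hPR were closest to E4 developing RPE (0.967 and 0.970), against 0.980 and 0.979 to their own group. In 2 libraries the chromosome W transcript *HINTW* was nearly or wholly missing: replicate 3 of E5 6hPR had 0 and replicate 3 of E4 6hPR + FGF2 had 60.4, while the other 16 libraries had 20330 or more. For the 10 SOX genes, calls that changed when 1 of these libraries was left out are given, singly or as counts. Results for other named genes and for marker lists are given with all libraries only.

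Of 90 pairwise tests of a SOX gene, 18 were called, or 20.0%, against 20.8% over all genes tested, a share near that background, so that nothing particular to these genes as a group is read from it. *SOX21* and *SOX6* were called in none of these tests. The groups compared did not overlap in 30 of the 90 tests (33.3%), against 36.2% over all genes (23.5% to 48.8% in single comparisons).

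Among the progenitor class, *SOX3* (ENSGALG00000054923) was the gene that rose with FGF2 at E4. Its normalized counts were 241, 368 and 192 in E4 6hPR + FGF2, 50.2, 31.7 and 66.3 in E4 6hPR, and 28.3, 21.9 and 15.3 in E4 developing RPE. Every FGF2 library lay above every library of the other E4 groups. The log2 fold change of 6hPR + FGF2 over developing was 3.57 (SE 0.67, adjusted p = 0.0013, limma), the largest of the 90 in size, and 3 of 10 SOX genes were called in this comparison, where 20.0% of all genes were. Over 6hPR the log2 fold change was 2.43 (SE 0.67, adjusted p = 0.036), and *SOX3* was the 1 SOX gene called, where 8.27% of all genes were. The first call was kept whichever library was left out, with a lowest value of 3.31. The second was lost when any 1 of the 6 libraries was left out (log2 fold change 2.15 to 2.67, adjusted p 0.053 to 0.12), although its direction was not.

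At E5, *SOX3* was at 79.6, 107 and 156 in 6hPR + FGF2, at 21.8, 22.4 and 97.1 in 6hPR, and at 144, 27.0 and 19.5 in developing RPE. In each of the last 2 groups, 1 library lay far above the others and within the range of the FGF2 libraries. The log2 fold changes of 6hPR + FGF2 were 1.36 over developing (SE 0.67, adjusted p = 0.15) and 1.58 over 6hPR (SE 0.67, adjusted p = 0.095), neither called. The high library decided both. Without E5 developing replicate 1, the comparison with developing gave 2.23 (adjusted p = 0.0083), and without E5 6hPR replicate 3, which lacks the W transcript, the comparison with 6hPR gave 2.29 (adjusted p = 0.028). The responses to 6hPR + FGF2 over developing differed between the stages by −2.21 (E5 minus E4, SE 0.95, adjusted p = 0.18), with a 95% interval of −4.23 to −0.20 before adjustment. This test did not call a smaller response at E5, whereas DESeq2 on the recovered reads did (−2.78, adjusted p = 0.037).

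*SOX2* (ENSGALG00000043460) varied widely within groups. Its normalized counts were 253, 236 and 735 in E5 6hPR + FGF2, 241, 167 and 275 in E5 6hPR, and 484, 1045 and 121 in E5 developing RPE. At E4 they were 722, 297 and 210.4 in 6hPR + FGF2, 317, 273 and 322 in 6hPR, and 65.5, 113 and 131 in developing RPE. Within E5 developing RPE the highest library was 8.64 times the lowest. The group that stood apart was E4 developing, which lay below every library of the E4 surgery groups.

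At E4 the log2 fold change of *SOX2* over developing was 1.84 in 6hPR + FGF2 (SE 0.64, adjusted p = 0.055) and 1.61 in 6hPR (SE 0.64, adjusted p = 0.12). Neither was called in the main limma fit (all 6 groups, genes summing to 10 or more). Between 6hPR + FGF2 and 6hPR the log2 fold change was 0.23 (95% interval −1.13 to 1.60). The E4 value with FGF2 sat at the limit, and was called with a mean limit of 10 (adjusted p = 0.045), edgeR (0.043) and DESeq2 (0.0055), and without E4 6hPR + FGF2 replicate 3, which lacks most of the W transcript (2.22, adjusted p = 0.042). The E4 value in 6hPR was called when the groups compared were fitted alone (adjusted p = 0.036) and with DESeq2 (0.045). At E5 the log2 fold changes over developing were −0.16 in 6hPR + FGF2 (95% interval −1.52 to 1.20) and −0.82 in 6hPR (−2.18 to 0.54), intervals too wide to settle a direction. Without E5 developing replicate 3, the lowest at 121, 6hPR had a value of −1.67 (adjusted p = 0.035). The responses of *SOX2* over developing differed between the stages by −2.004 in 6hPR + FGF2 (E5 minus E4, SE 0.91, adjusted p = 0.20) and −2.43 in 6hPR (SE 0.91, adjusted p = 0.18). Neither was called in the main limma fit. Both were called without E5 developing replicate 3 (−2.85 and −3.28, adjusted p = 0.042 and 0.024) and with DESeq2 (adjusted p = 0.037 and 0.016).

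Between the stages, *SOX2* was called higher in E5 than in E4 developing RPE, by 1.99 on the log2 scale (SE 0.64, adjusted p = 0.036). 4 of 10 SOX genes were called in this comparison, against 22.0% of all genes. The groups overlapped, with 121 in E5 developing replicate 3 and 131 in E4 developing replicate 3. The call was lost in limma fits of only the groups compared (adjusted p = 0.22), with quantile normalization (0.052), without the trend (0.057) and with the replicate block (0.056). The call also depended on single libraries. Without E5 developing replicate 2 the value was 1.29 (adjusted p = 0.16), and it was also lost without replicate 1 of E5 developing and without each of the 3 E4 developing libraries (1.69 to 2.19, adjusted p 0.053 to 0.13), while leaving out E5 developing replicate 3 kept it. Under surgery, E5 minus E4 was −0.01 in 6hPR + FGF2 (95% interval −1.38 to 1.35) and −0.44 in 6hPR (−1.81 to 0.92).

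**Figure D1:**
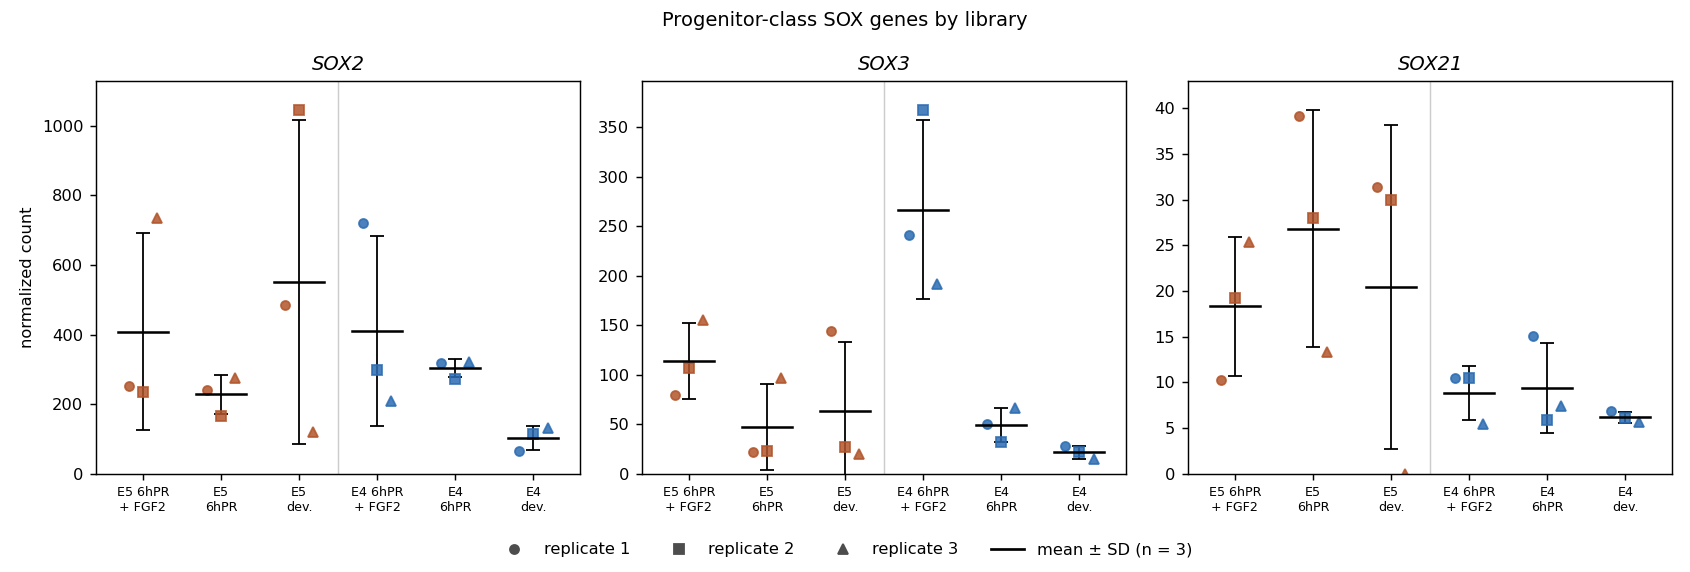
Normalized counts (y axis, linear, from 0) of *SOX2*, *SOX3* and *SOX21* in the 6 groups (x axis), with 1 symbol per replicate library, bars for the mean and whiskers for the SD (n = 3). *SOX3* was highest in E4 6hPR + FGF2 (192 to 368), and single libraries reached 1045, 735 and 722 for *SOX2*.

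The libraries with high *SOX2* were set beside the retinal neuron and progenitor markers. E5 developing replicate 2, with *SOX2* at 1045, also held *SOX1* at 374, the highest of all libraries for this SoxB1 progenitor gene, and its 11 neuron markers averaged 9.37 on the log2 scale. In E5 developing replicates 1 and 3 this mean was 7.03 and 5.40, in the order of their *SOX2* values. The other 2 libraries above 700 were unlike it: the mean was 5.14 in E5 6hPR + FGF2 replicate 3 and 5.92 in E4 6hPR + FGF2 replicate 1. In E5 6hPR + FGF2 replicate 3 that mean was the lowest of its group, and 2 of 11 markers were highest there. In E4 6hPR + FGF2 replicate 1 it was the highest of its group, with 5 of 11. In E4 developing RPE the marker mean was lowest, from 4.22 to 4.34, beside *SOX2* values of 65.5 to 131. Markers of neural retina progenitors (7 genes) were read in the same way. Their log2 mean was the highest of the group in all 3 libraries with *SOX2* above 700. It was 11.995 in E5 developing replicate 2, 10.06 in E5 6hPR + FGF2 replicate 3 and 10.98 in E4 6hPR + FGF2 replicate 1. In these libraries 6, 4 and 5 of the 7 were highest. The margin in E5 6hPR + FGF2 was small, with 9.85 and 9.99 in replicates 1 and 2. The summed level did not follow. It was the lowest of the group in E5 developing replicate 2 (101880, against 124545 and 111459). The same held in E5 6hPR + FGF2 replicate 3 (61845, against 68565 and 68950). In E4 6hPR + FGF2 replicate 1 it was the highest (62516). In E5 developing RPE the log2 mean was 10.11, 11.995 and 8.82 over the replicates, in the order of *SOX2*. In E5 6hPR replicate 3, the highest of its group for *SOX2*, the log2 mean was the lowest, at 10.35 against 11.39 and 11.40. In E5 over E4 developing RPE, 5 of 7 progenitor markers and 5 of 11 neuron markers were called higher and 0 lower (10.8% and 11.1% of all genes). The markers moved with *SOX2* in part of the libraries, and their part in the stage difference was not tested.

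**Figure D2:**
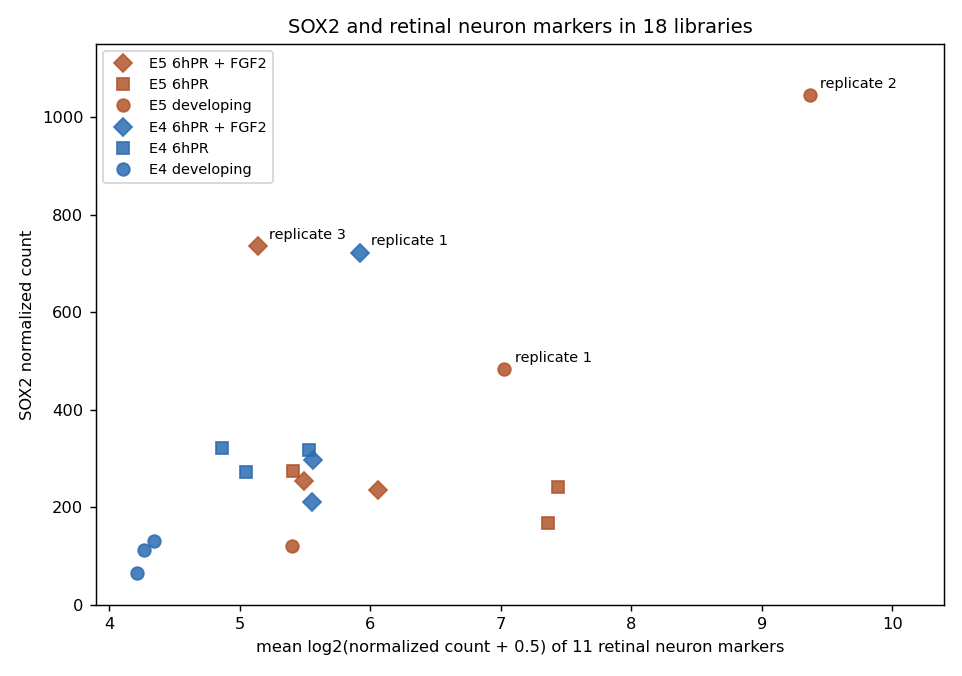
*SOX2* normalized count (y axis) against the mean log2(normalized count + 0.5) of 11 retinal neuron markers (x axis) in 18 libraries, coloured by stage and shaped by condition. E5 developing replicate 2 lies alone at 9.37 and 1045, whereas the FGF2 libraries at 735 and 722 lie among the others on the x axis, at 5.14 and 5.92.

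*SOX21* (ENSGALG00000035157) was near the detection limit. It had 0 to 45 reads per library, with normalized counts of 10.3, 19.2 and 25.4 in E5 6hPR + FGF2, 39.2, 28.1 and 13.3 in E5 6hPR, and 31.4, 30.01 and 0 in E5 developing RPE. The E4 libraries lay between 5.39 and 15.1. A count of 0 in E5 developing replicate 3 allows up to 3.66 normalized counts (3 reads). No comparison was called with all libraries. Every 95% interval was at least as wide as that of E5 6hPR over developing, −0.73 to 4.07, so that differences of several fold could be missed. Without E5 developing replicate 3, *SOX21* was higher in E5 than in E4 developing RPE by 2.22 (adjusted p = 0.010), against 0.23 with it (adjusted p = 0.93).

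In the neuronal class, *SOX4* (ENSGALG00000036497) rose after retinectomy at both stages, with and without FGF2. Its normalized counts were 5431, 5962 and 6479.6 in E5 6hPR + FGF2, 5106, 5220.2 and 4845 in E5 6hPR, and 3821, 3193 and 3803 in E5 developing RPE. At E4 they were 5122, 5588 and 5844 in 6hPR + FGF2, 4303, 5668 and 4220.05 in 6hPR, and 2931, 3018 and 3488 in developing RPE. At each stage every surgery library lay above every developing library.

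The log2 fold change of 6hPR + FGF2 over developing was 0.73 at E5 (SE 0.11, adjusted p = 0.00020) and 0.81 at E4 (SE 0.11, adjusted p = 0.00013). For 6hPR over developing it was 0.49 at E5 (SE 0.11, adjusted p = 0.0064) and 0.58 at E4 (SE 0.11, adjusted p = 0.0032). *SOX4* was the 1 SOX gene called in each of the 6hPR comparisons, where 19.0% of all genes were called at E5 and 13.6% at E4. With FGF2 at E5, 3 of 10 were called, against 28.8%. These 4 calls were kept with any single library left out. The E4 6hPR call was lost when the groups compared were fitted alone (adjusted p = 0.071).

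No further difference in *SOX4* between 6hPR + FGF2 and 6hPR was called. Over 6hPR the log2 fold change was 0.23 at both stages (SE 0.11, adjusted p = 0.15 at E5 and 0.25 at E4), with 95% intervals of −0.01 to 0.48. E4 6hPR replicate 2, at 5668, lay among the FGF2 libraries. Without it the E4 value was 0.37 (adjusted p = 0.036). The stage interactions were between −0.09 and 0.00 (SE 0.16), with 95% intervals within −0.43 and 0.34, and E5 exceeded E4 by 0.11 to 0.20 with no call. The hours between surgery and collection and the surgery itself cannot be told apart here, since developing RPE was taken without surgery.

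*SOX11* (ENSGALG00000016397) was lower at E5 than at E4 in both conditions without FGF2. It was at 2628, 2359.9 and 2523 in E5 6hPR, against 4179.96, 2969.75 and 4156 in E4 6hPR, and at 2726, 2407 and 2242 in E5 developing, against 3433, 3996 and 3099 in E4 developing RPE. The stage groups did not overlap in either condition. E5 minus E4 was −0.57 in 6hPR (SE 0.14, adjusted p = 0.010) and −0.51 in developing RPE (SE 0.14, adjusted p = 0.018). In 6hPR, 2 of 10 SOX genes were called, against 19.7% of all genes. Leaving out E4 6hPR replicate 1 or 3 lost the first call (adjusted p = 0.053 and 0.057), and leaving out E5 developing replicate 3 or E4 developing replicate 2 lost the second (0.056 and 0.092).

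With FGF2, *SOX11* was at 3160.4, 3416 and 3541 at E5, against 2487, 3480.3 and 3215 at E4. These groups overlapped, and E5 minus E4 was 0.15 (SE 0.14, adjusted p = 0.47). At E5, 6hPR + FGF2 exceeded 6hPR by 0.43 (SE 0.14, adjusted p = 0.039; 1 of 10 SOX genes called, against 26.2% of all genes) and developing RPE by 0.46 (SE 0.14, adjusted p = 0.026). All 3 FGF2 libraries lay above all 6 others of E5. At E4 the same differences were −0.30 (SE 0.14, adjusted p = 0.24) and −0.20 (SE 0.14, adjusted p = 0.37). The 2 stage interactions, 0.73 over 6hPR (adjusted p = 0.061) and 0.66 over developing (adjusted p = 0.072), missed the threshold, and DESeq2 called both (adjusted p = 0.011 and 0.025). The first was called without E4 6hPR replicate 2 (0.89, adjusted p = 0.017) and the second without E5 developing replicate 1 (0.74, adjusted p = 0.036). The E5 call over 6hPR was lost with any of the 6 libraries left out (0.39 to 0.48, adjusted p 0.051 to 0.13), and the call over developing with 4 of 6 (adjusted p up to 0.087).

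**Figure D3:**
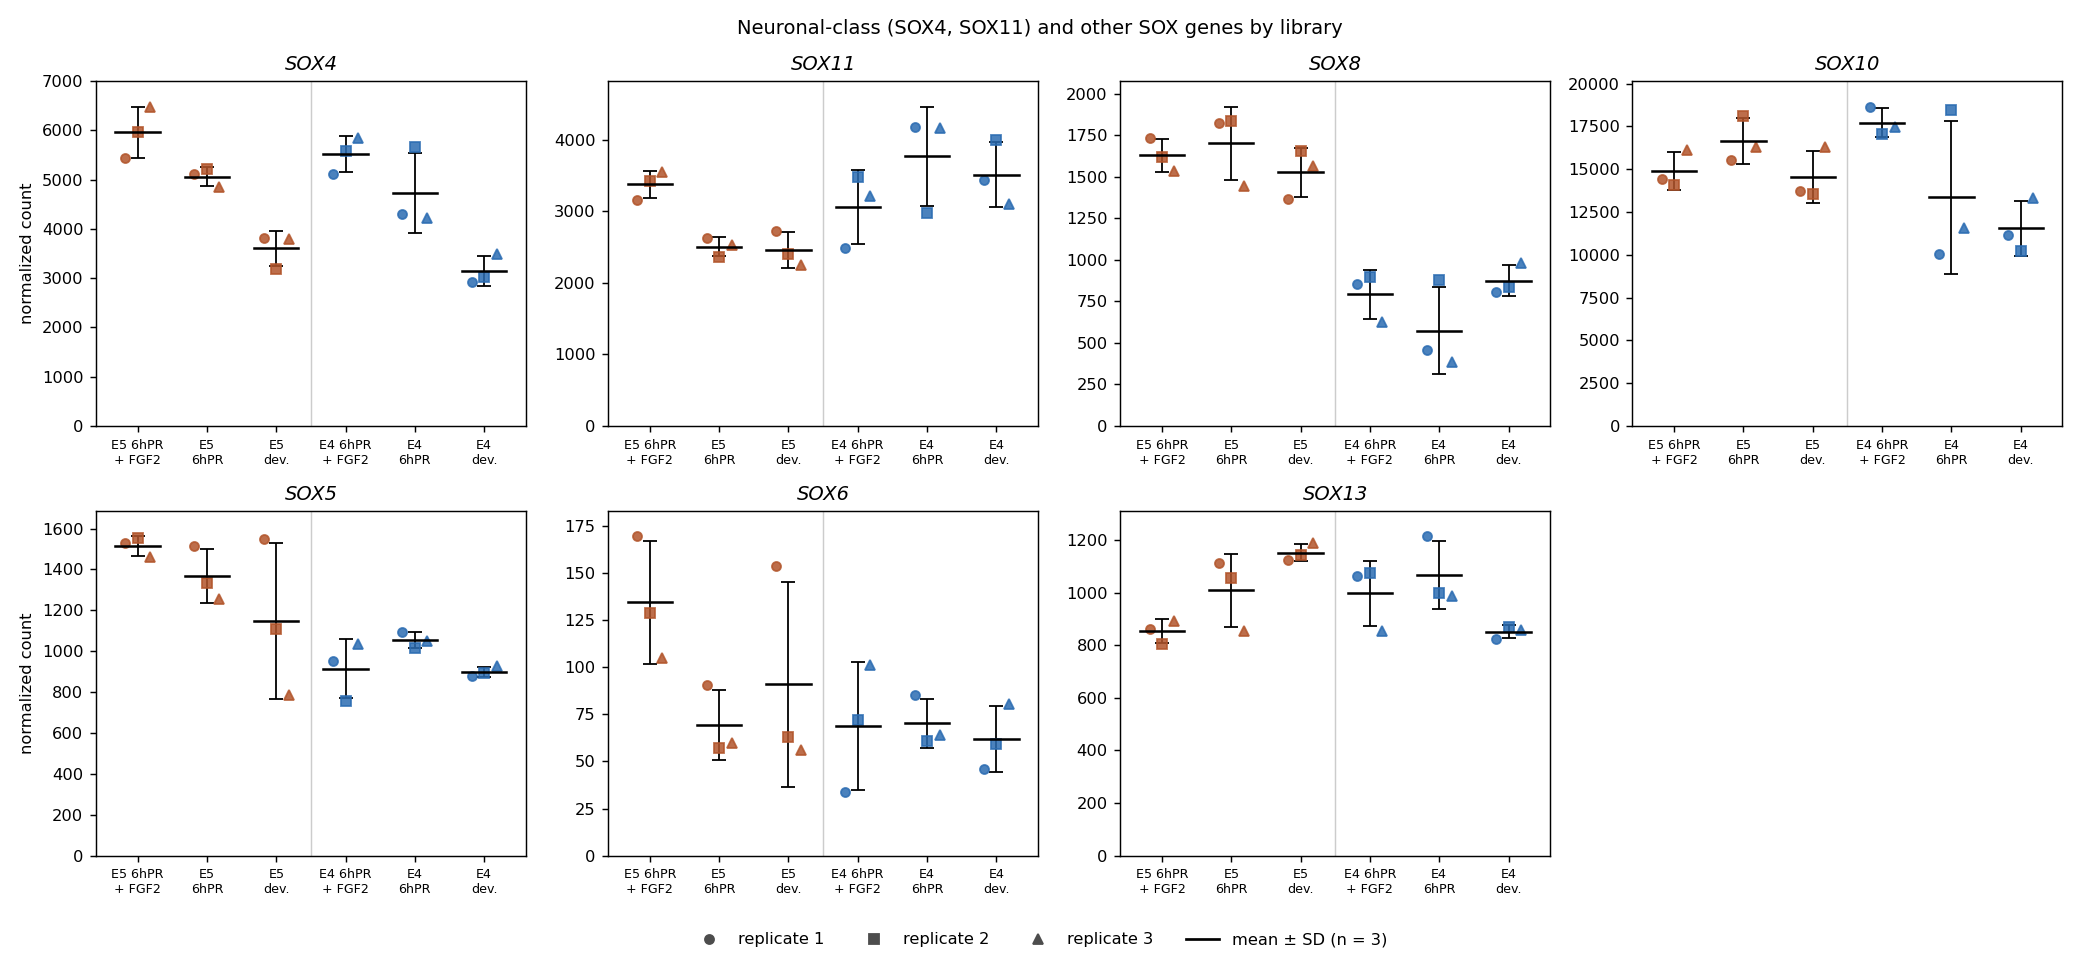
Normalized counts (y axes, linear, from 0) of *SOX4*, *SOX11* and the other SOX genes in the 6 groups (x axis), with 1 symbol per replicate, bars for the mean and whiskers for the SD (n = 3). *SOX4* lay at 4220.05 or more in every surgery library and at 3821 or less in every developing one, and *SOX8* at 1364 or more in every E5 library and at 980.4 or less in every E4 one.

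Among the other classes, *SOX8* (ENSGALG00000005263) was higher at E5 in every condition. Its normalized counts were 1735, 1620.3 and 1538 in E5 6hPR + FGF2, 1824, 1836 and 1447 in E5 6hPR, and 1364, 1653 and 1567 in E5 developing RPE. At E4 they were 853, 899.7 and 625 in 6hPR + FGF2, 459.8, 876 and 388 in 6hPR, and 804, 837 and 980.4 in developing RPE. No E5 library overlapped any E4 library. E5 minus E4 was 1.06 in 6hPR + FGF2 (SE 0.23, adjusted p = 0.0033), 1.65 in 6hPR (SE 0.23, adjusted p = 0.00016) and 0.81 in developing RPE (SE 0.23, adjusted p = 0.019). In 6hPR + FGF2, 2 of 10 SOX genes were called, against 29.5% of all genes. The first 2 calls were kept with any library left out, whereas the third was lost without E5 developing replicate 2 (0.75, adjusted p = 0.054) or without E4 developing replicate 1 or 2 (adjusted p = 0.068 and 0.059).

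*SOX8* was not called after retinectomy at either stage in the main limma fit, but the E4 6hPR value sat at the limit. At E4 the log2 fold change of 6hPR over developing was −0.69 (SE 0.23, adjusted p = 0.058) and that of 6hPR + FGF2 over 6hPR was 0.54 (SE 0.23, adjusted p = 0.18). The first of these was called with a mean limit of 10 (adjusted p = 0.048), quantile normalization (0.043) and the replicate number as a block (0.046). Both were decided by E4 6hPR replicate 2, at 876 against 459.8 and 388 in the rest of its group. Without it, 6hPR was lower than developing by 1.04 (log2 fold change −1.04, adjusted p = 0.0013) and 6hPR + FGF2 exceeded 6hPR by 0.89 (adjusted p = 0.0035). At E5 the same differences were 0.15 (95% interval −0.33 to 0.64) and −0.05 (−0.54 to 0.43). The stage interactions, 0.84 for 6hPR over developing (SE 0.32, adjusted p = 0.19) and −0.59 for 6hPR + FGF2 over 6hPR (SE 0.32, adjusted p = 0.26), were called without E4 6hPR replicate 2 (1.19 and −0.94, adjusted p = 0.012 and 0.023).

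*SOX10* (ENSGALG00000012290) was highest in E4 6hPR + FGF2. Its normalized counts were 18656, 17032 and 17444 there, against 10070.5, 18445 and 11581 in E4 6hPR and 11156, 10193 and 13307 in E4 developing RPE. The FGF2 libraries lay above all developing libraries and above 2 of 3 6hPR libraries, and the exception was again E4 6hPR replicate 2. The log2 fold change over developing was 0.62 (SE 0.17, adjusted p = 0.014), lost without E4 6hPR + FGF2 replicate 1 (0.59, adjusted p = 0.054) or E4 developing replicate 2 (0.54, adjusted p = 0.069). Over 6hPR it was 0.46 (SE 0.17, adjusted p = 0.11), and 0.71 without replicate 2 of 6hPR (adjusted p = 0.0018).

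At E5, *SOX10* was at 14445, 14085 and 16135.5 in 6hPR + FGF2, 15509.5, 18103.5 and 16289 in 6hPR, and 13747, 13559 and 16273 in developing RPE. The 3 groups overlapped. The log2 fold changes with FGF2 were 0.04 over developing (95% interval −0.32 to 0.39) and −0.16 over 6hPR (−0.51 to 0.20). The interaction over 6hPR was −0.61 (SE 0.24, adjusted p = 0.12), and −0.87 without E4 6hPR replicate 2 (adjusted p = 0.011).

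Since *SOX10* also marks neural crest derivatives, their markers were read beside it. *FOXD3*, an early crest factor, was low, between 19.3 and 92.0 over the libraries. It was called lower over developing RPE in both E5 surgery groups. Its values were 26.2, 37.5 and 19.3 in E5 6hPR + FGF2, 22.6, 31.4 and 20.0 in E5 6hPR, and 92.0, 71.0 and 61.1 in E5 developing RPE. The summed level of 8 crest markers was 5209 to 5589 in E4 6hPR + FGF2, 3114 to 3791 in E4 6hPR and 2940.4 to 3239.9 in E4 developing RPE. Their mean on the log2 scale did not separate the groups, at 7.67, 7.68 and 7.37 in E4 6hPR + FGF2 and 7.60, 7.63 and 8.09 in E4 developing RPE, and the median log2 fold change of the 8 was −0.78 (−0.01 over all genes). 2 abundant members carried the sum. *ERBB3*, a neuregulin receptor of the crest lineage, was at 2101, 2272 and 1959 in E4 6hPR + FGF2, 298, 1042 and 327 in E4 6hPR and 257, 229 and 494 in E4 developing RPE. *EDNRB*, an endothelin receptor, was at 2047, 2054 and 2229 in E4 6hPR + FGF2, 693, 644 and 751 in E4 6hPR and 272, 286 and 654 in E4 developing RPE. These were the 2 of 8 markers called higher in 6hPR + FGF2 over developing at E4 (9.82% of all genes). *EDNRB2*, a related receptor, was the 1 called lower (−1.57, adjusted p = 0.026, 10.2% of all genes). At E5, *ERBB3* was at 900, 849 and 1014 in 6hPR + FGF2, against 484, 342 and 435 in developing RPE. *EDNRB* was at 2340, 2419 and 3349, against 1964, 1587 and 977. In this E5 comparison 2 of 8 markers were called higher and 2 lower (15.1% and 13.7% of all genes), while *SOX10* had 0.04. The part of crest cells in the *SOX10* difference was not tested.

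E4 6hPR replicate 2 was thus high for *SOX8*, *SOX10* and *SOX4*, lower than its group for *SOX11* and *SOX3*, and high for *ERBB3*, each towards the FGF2 libraries except for *SOX3*. Other values did not go that way. *EDNRB* (644) and the summed crest markers (3114) were the lowest of the group there, away from the FGF2 libraries. *SOX2* was also lowest there (273), with FGF2 libraries on both sides of it. Leaving out E4 6hPR replicate 2 raised the SOX genes called in E4 6hPR + FGF2 over 6hPR to 4 of 10, against 1 with it, and the calls over all genes to 1876 (10.3%), against 1512. The 4 were *SOX4*, *SOX8* and *SOX10* (higher) and *SOX11* (lower, −0.46, adjusted p = 0.044), and *SOX3* was no longer called (2.15, adjusted p = 0.084). For E5 over E4 in 6hPR it raised them to 3, adding *SOX10* (0.62, adjusted p = 0.0019), where 3745 of all genes (20.5%) were called.

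*SOX5* (ENSGALG00000032768) was called higher at E5 than at E4 in 6hPR + FGF2. It was at 1527, 1554 and 1458 in E5 6hPR + FGF2, against 951, 757 and 1037 in E4 6hPR + FGF2, with no overlap and a log2 difference of 0.74 (SE 0.18, adjusted p = 0.0065). This call was kept with any library left out. In 6hPR the values were 1513, 1335 and 1255 at E5, against 1093, 1017 and 1052 at E4, again with no overlap. The difference of 0.37 was not called there (SE 0.18, adjusted p = 0.17). In developing RPE they were 1549, 1108 and 787 at E5, against 880.2, 893 and 926 at E4, with a difference of 0.30 (SE 0.18, adjusted p = 0.27) that was called without E5 developing replicate 3 (0.54, adjusted p = 0.013).

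E5 developing replicate 1, at 1549, decided the *SOX5* calls over developing at E5. With all libraries, 6hPR + FGF2 exceeded developing by 0.45 (SE 0.18, adjusted p = 0.070) and 6hPR did by 0.30 (SE 0.18, adjusted p = 0.26). Without that library the values were 0.70 (adjusted p = 0.0022) and 0.55 (adjusted p = 0.018). The stage interaction of 6hPR + FGF2 was 0.44 over developing (SE 0.25, adjusted p = 0.32) and 0.37 over 6hPR (SE 0.25, adjusted p = 0.38), neither called. Without E5 developing replicate 1 the interaction over developing was called (0.68, adjusted p = 0.035). The same library was also the highest of its group for *SOX3* and *SOX6*, and without it 6 of 10 SOX genes were called in E5 6hPR + FGF2 over developing, against 3 with it, while 6063 of all genes (33.3%) were called, against 5261.

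*SOX6* (ENSGALG00000006074) was low and scattered, between 33.6 and 169.5 over the libraries. It was at 169.5, 129 and 105 in E5 6hPR + FGF2, 90.5, 57.2 and 59.95 in E5 6hPR, and 154, 63.0 and 56.2 in E5 developing RPE. The FGF2 libraries at E5 lay above all 6hPR libraries, but the log2 fold change of 0.96 missed the threshold (SE 0.43, adjusted p = 0.11). E5 minus E4 with FGF2 was 1.07 (SE 0.43, adjusted p = 0.073), with 33.6, 71.8 and 101.4 at E4, and without the last of these libraries, which lacks most of the W transcript, it was 1.41 (adjusted p = 0.033). The other E4 libraries lay between 45.9 and 85.3.

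Of the 10 genes, *SOX13* (ENSGALG00000000583) was the 1 called by limma in the stage interaction of 6hPR + FGF2 over developing. At E5 it was at 863, 803 and 893 in 6hPR + FGF2, 1114, 1057 and 854 in 6hPR, and 1126, 1142 and 1189.6 in developing RPE. At E4 it was at 1064, 1074 and 853 in 6hPR + FGF2, 1215, 997 and 988 in 6hPR, and 824, 871 and 859 in developing RPE. Developing RPE was the highest group at E5 and the lowest at E4.

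Relative to developing, 6hPR + FGF2 had a log2 value of −0.44 at E5 (SE 0.12, adjusted p = 0.012), and at E4 it was 0.22 (SE 0.12, adjusted p = 0.23). The difference between these responses was −0.66 (SE 0.17, adjusted p = 0.034), and 1 of 10 SOX genes was called, against 5.56% of all genes. At an unadjusted limma p under 0.05, 5 SOX genes passed in this interaction, against 22.8% of all genes. For it edgeR called 1 (4.99% of all genes). DESeq2 called 4 (12.8%), which were *SOX2*, *SOX3*, *SOX11* and *SOX13*. In the other 2 interactions, 0 of 10 were called, against 2.99% (6hPR over developing) and 2.54% (6hPR + FGF2 over 6hPR). At an unadjusted p under 0.05, 3 and 2 SOX genes passed in these, against 16.6% and 25.4% of all genes. edgeR called 0 and 0 (3.06% and 2.21% of all genes), and DESeq2 called 2 and 1 (8.2% and 17.8%). The *SOX13* interaction kept its sign, −0.60 to −0.76, but lost its call with 9 of 12 libraries left out (adjusted p up to 0.086). In developing RPE, E5 exceeded E4 by 0.44 (SE 0.12, adjusted p = 0.015), a call lost without E4 developing replicate 1 (adjusted p = 0.056), and without E5 6hPR + FGF2 replicate 2 the E5 fall had an adjusted p of 0.053.

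Endothelial markers moved with *SOX13*. Their summed level (6 genes) was 18659 to 20396 in E5 6hPR + FGF2, 23149.9 to 27837 in E5 6hPR and 25817 to 35346 in E5 developing RPE. At E4 it was 20837 to 22716 in 6hPR + FGF2, 20988 to 27855 in 6hPR and 17741 to 19532 in developing RPE, so that developing RPE was again highest at E5 and lowest at E4. 4 of the 6 markers fell in 6hPR + FGF2 over developing at E5, where 13.7% of all genes were called lower. The interaction was negative and called for 4 of 6 (2.42% of all genes), among them *TIE1*, an endothelial receptor kinase. The part of endothelial cells in the *SOX13* result was not tested.

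**Figure D4:**
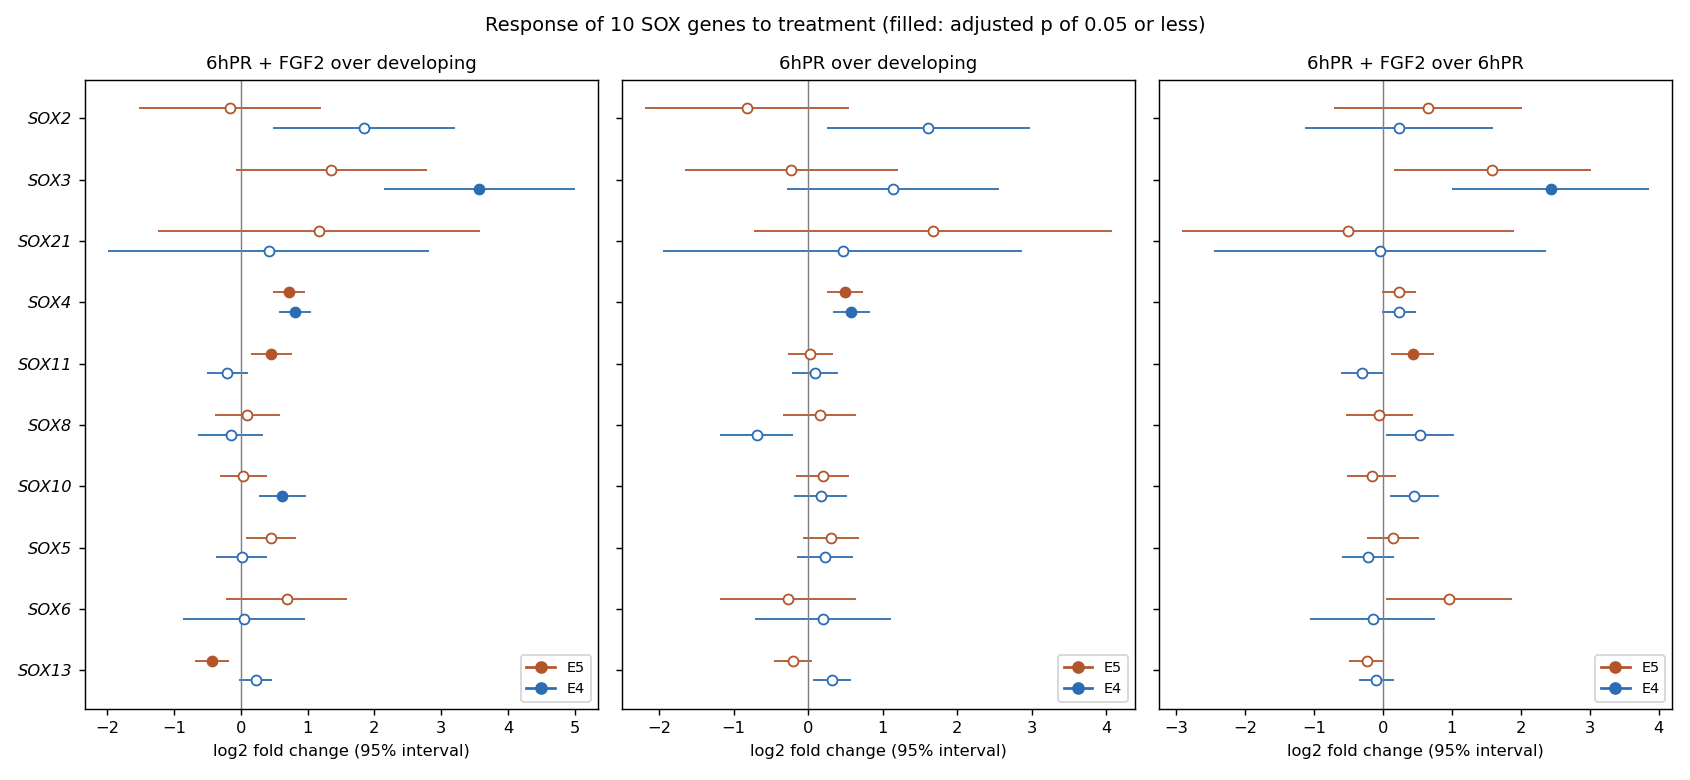
Log2 fold changes (x axis, points) with 95% intervals (whiskers) of the 10 SOX genes (y axis) in 3 treatment comparisons, E5 above E4, filled where called. *SOX4* is filled at both stages in the first and second comparison (0.49 to 0.81). *SOX3* (3.57 and 2.43) and *SOX10* (0.62) are filled at E4, and *SOX11* (0.46 and 0.43) and *SOX13* (−0.44) at E5.

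**Figure D5:**
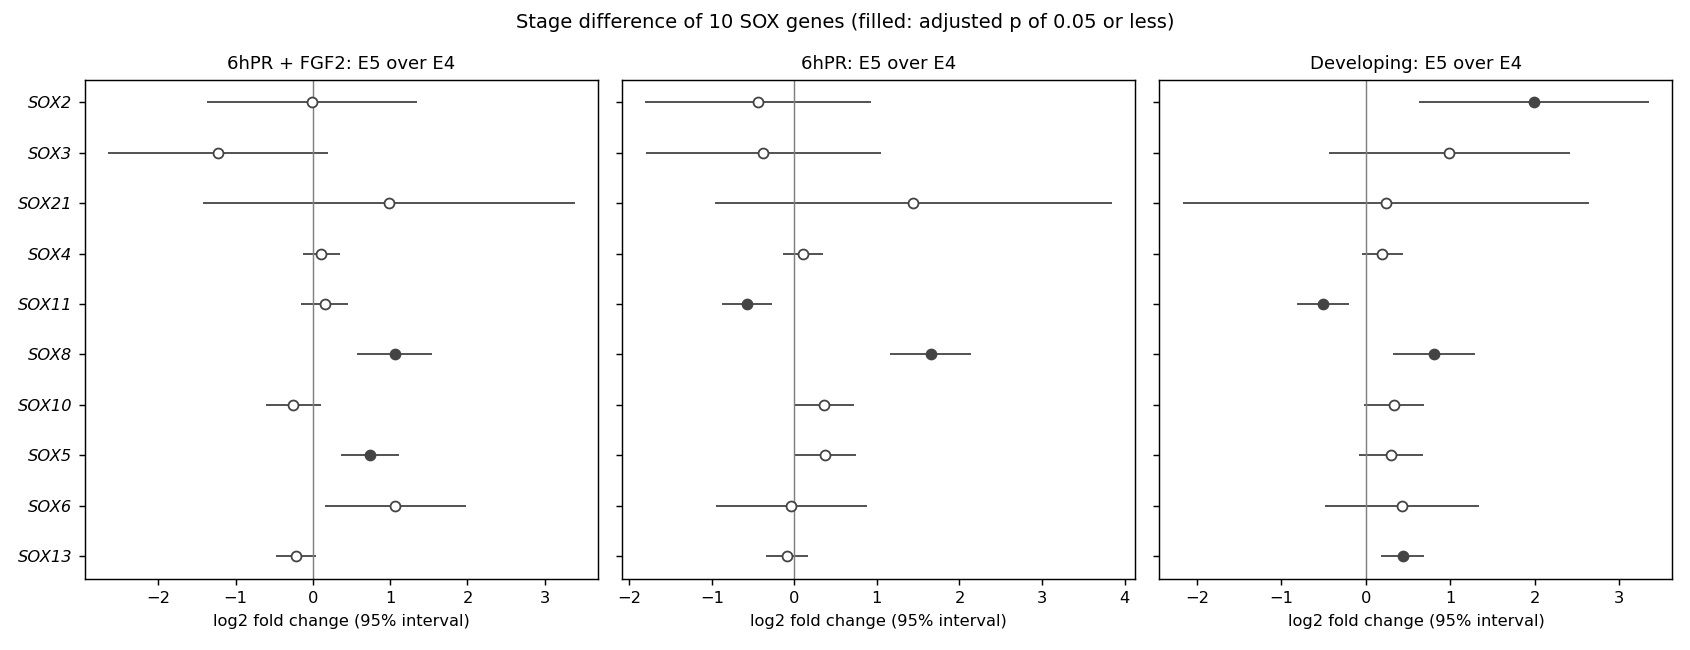
Log2 difference of E5 over E4 (x axis, points) with 95% intervals (whiskers) of the 10 SOX genes (y axis) in 6hPR + FGF2, 6hPR and developing RPE, filled where called. *SOX8* is filled in all 3 (1.06, 1.65 and 0.81), and *SOX11* in 6hPR and developing RPE (−0.57 and −0.51). *SOX5* is filled in 6hPR + FGF2 (0.74), and *SOX2* (1.99) and *SOX13* (0.44) in developing RPE.

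Patterns over the 18 libraries were compared with those of 10602 named genes (mean of 50 or more) by Pearson r of the log2 values, as a description over libraries that share groups. *SOX4* was most like *EGR1* (r = 0.951), an immediate early gene. *SOX5* was most like *CREBRF* (0.960), *SOX10* like *FABP4* (0.963), a fatty acid binding protein, and *SOX8* like *SDC4* (0.935), a heparan sulfate proteoglycan. *SOX6* was most like *GOLM1* (0.923), with *PTCH1*, the Hedgehog receptor, also among its 3 most alike (0.909). *SOX11* was most like *EMILIN2* (0.900), *SOX3* like *BSPRY* (0.880) with *TGFB2* second (0.857), *SOX2* like *ZIC2* (0.862), a neural zinc finger factor, and *SOX13* like *TIE1* (0.849). *SOX21*, with a mean under 50, was not compared. None of the other 9 had one of these 9 among its 3 most alike.

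Of 10 further SOX family genes listed, 5 had a row. *SOX9*, a SoxE factor of RPE and progenitors, fell in E4 6hPR + FGF2 over developing (−0.88, SE 0.11, adjusted p = 5.3e-05) and over 6hPR (−0.71, SE 0.11, adjusted p = 0.0012). In the same comparisons *SOX10* had 0.62 and 0.46, and *SOX8* −0.15 and 0.54. The endothelial factor *SOX17* rose at E4 in 6hPR + FGF2 (1.27, adjusted p = 0.0073) and 6hPR (1.16, adjusted p = 0.019) over developing, and *SOX18* fell in E5 6hPR + FGF2 over developing (−0.64, adjusted p = 0.0087). *SOX1* was higher in E5 than in E4 developing RPE (4.37, SE 1.32, adjusted p = 0.026), with 63.8, 374 and 6.13 at E5, against 6.84, 4.38 and 0 at E4. In the stage interaction of 6hPR + FGF2 over developing, *SOX9* was called higher and *SOX17* lower, 1 of 5 each (3.14% and 2.42% of all genes). *SOX14* was called in no comparison.

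Known partners and targets of SOX factors were read from a list of 34 genes, of which 30 were tested. In E5 6hPR + FGF2 over developing, 6 were higher and 6 lower (15.1% and 13.7% of all genes), and in E4 6hPR + FGF2 over developing, 9 were higher and 2 lower (9.82% and 10.2% of all genes). Here and below the shares of all genes are the background, and no test of the list was made. At E4, *MITF*, the pigment cell regulator and a SOX10 target in melanocytes, fell (−2.38, SE 0.25, adjusted p = 1.2e-05), while *ERBB3*, another SOX10 target, rose (2.77, SE 0.37, adjusted p = 8.2e-05), as did *LHX2*, an eye field factor (0.81, adjusted p = 0.0011), and *MAPT*, a microtubule protein of neurons (0.66, adjusted p = 0.0019). At E5, *MITF* fell (−1.18, adjusted p = 0.0025), as did the Notch ligand *DLL1* (−0.85, adjusted p = 0.0012), and the cartilage collagen *COL9A1* rose (0.59, adjusted p = 0.00028).

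For 6hPR over developing the list had 4 higher and 2 lower genes at E5 (9.92% and 9.09% of all genes), and 7 higher and 1 lower at E4 (5.68% and 7.9%). *MITF* was among the lower at both stages (−1.36 and −1.57). For 6hPR + FGF2 over 6hPR it had 2 higher and 6 lower at E5 (13.9% and 12.3% of all genes), and 2 of each at E4 (4.99% and 3.28%), where *ERBB3* rose (2.17, adjusted p = 0.0022) and *ACAN*, a cartilage proteoglycan, fell (−2.34, adjusted p = 0.00041). Between the stages, E5 over E4, 7 were higher and 4 lower in 6hPR + FGF2 (16.7% and 12.8% of all genes), 3 higher and 0 lower in 6hPR (11.3% and 8.41%), and 11 higher and 2 lower in developing RPE (10.8% and 11.1%), with the melanin enzyme gene *DCT* higher in all 3 (1.33, 1.22 and 1.30). In the interaction of 6hPR + FGF2 over developing, 4 were lower and 0 higher (2.42% and 3.14% of all genes), led by *DLL1* (−1.41, SE 0.23, adjusted p = 0.0036) and the Notch target *HES5* (−6.38, SE 1.32, adjusted p = 0.012). The median of the list lay between −0.27 and 0.43 over the 12 comparisons, and that of all genes within 0.03 of 0.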

How the data were processed

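Bulk RNA-seq of 18 RPE libraries was used (6 groups of 3). Before deposit, the authors ran Cutadapt, Trim Galore, 2-pass STAR alignment against GRCg6a and StringTie counting on Ensembl genes, and removed genes under 10 raw counts. The deposited signal is normalized counts, made with DESeq2 size factors. The versions of these tools are not given in the sources used here. The kit was stranded, and whether counting used strand is not given. Multiplied by the size factor, 100% of values came within 1e-06 of a whole number, and these reads served the count tests and gave the depth (50.7 to 73.0 M).

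Log2 values (pseudocount 0.5, genes summing to 10 or more, 18287 genes) were fitted with limma 3.58.1 (trend) in R 4.3.3 as 6 group means over all libraries. 9 pairwise comparisons and 3 stage interactions were tested, with Benjamini-Hochberg adjustment over all genes of a comparison and an adjusted p of 0.05 or less for a call. Errors are SDs or moderated SEs, intervals are 95% and unadjusted. The procedure was tested on simulated data. The exact permutation test was not used, since 3 libraries against 3 cannot go below a p of 0.1.

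All 10 SOX genes are reported. Other listed SOX genes are named where called in a pairwise comparison (*SOX14* outside this rule), partners and targets by smallest adjusted p, up to 4 a comparison, and alike genes by the highest r. Not every listed gene that this rule would name is reported here. Genes named beside these (*ERBB3*, *EDNRB*, *EDNRB2*, *TIE1*, *FOXD3*, *OTX2*, *HINTW*) were chosen after their values were seen. The members and lists were chosen with earlier results of these data known. Alternatives were pseudocounts of 1 and 5, no filter, a mean of 10, TMM, quantile normalization, no trend, the replicate number as a block, only the groups compared, edgeR 4.0.16, DESeq2 1.42.0 and each library left out.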

Additional observations from a re-analysis of the deposited data

Results flagged for a closer look

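The response of *SOX13* to 6hPR + FGF2 over developing RPE differed between the stages by −0.66 on the log2 scale (E5 minus E4, SE 0.17, limma adjusted p = 0.034), with a fall at E5 of −0.44 and a value at E4 of 0.22 that was not called. It drew attention because the test of the difference itself passed the threshold, the only one of 30 interactions of the 10 SOX genes to do so with limma. Of all genes, 5.56% were called in this interaction, and 2.99% and 2.54% in the others. DESeq2 called 4 of the 10 SOX genes in it (12.8% of all genes). Of 12 limma fits with 1 library left out, 3 kept the *SOX13* call. Outside the 10 genes, *SOX9* and *SOX17* were also called in this interaction.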

How the results depend on the processing

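Of 120 tests of the 10 SOX genes, 19 were called, and 13 of these kept the call under all 11 alternatives, 8 with every library left out and 7 under both. No called value changed sign, and 30 tests without a call gained one under some setting. The 8 were *SOX4* over developing in 6hPR + FGF2 and 6hPR at both stages, *SOX3* in E4 6hPR + FGF2 over developing, *SOX8* in E5 over E4 6hPR + FGF2 and 6hPR, and *SOX5* in E5 over E4 6hPR + FGF2. *SOX21*, at 0 to 45 reads per library, had wide intervals.

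The counts of SOX genes called that moved by over 1.5 times were as follows, and 8 others moved by 1 (E4 6hPR + FGF2 over developing to 4 with a mean of 10, edgeR or DESeq2, E5 over E4 developing to 3 with quantile normalization, no trend or the block, and E5 over E4 6hPR + FGF2 to 3 with quantile normalization or only the groups compared). In E4 6hPR over developing the 1 call became 2 with a mean of 10, quantile normalization or the replicate block, and 3 with DESeq2. In E5 6hPR + FGF2 over 6hPR the 1 call became 0 with quantile normalization, no trend or the block, and at E4 it became 0 with no trend, the block or only the groups compared. With only the groups compared, E5 over E4 gave 2 calls in developing RPE (4 in the fit of all groups) and 1 in 6hPR (2). For the interactions DESeq2 called 4, 2 and 1 (1, 0 and 0 with limma). For all genes, the fit of only the groups compared gave 2756 calls for E5 6hPR + FGF2 over developing (5261), 1270 for E5 6hPR (3476), 197 for E4 6hPR + FGF2 over 6hPR (1512), 1760 for E5 over E4 developing (4015), and 677 (1016), 283 (546) and 1689 (465) for the interactions. DESeq2 gave 2296 for E4 6hPR + FGF2 over 6hPR (1512) and 1892, 1294 and 2437 for the interactions. For 6hPR + FGF2 over 6hPR, the interaction gave 704 with a mean of 10, 165 with limma without the trend and 298 with the block. Over the 9 pairwise comparisons, edgeR called 1411 to 5189 genes and DESeq2 2296 to 6128, against 1512 to 5398 with limma. Quantile normalization moved the share of higher calls to 43.7% for E5 over E4 6hPR + FGF2 (56.7%). The causes were not tested.

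With 1 library left out, the SOX genes called ranged over 1 to 6 and 2 to 4 (6hPR + FGF2 over developing, E5 and E4), 1 to 2 at each stage (6hPR over developing), 0 to 1 and 0 to 4 (6hPR + FGF2 over 6hPR), 1 to 5, 1 to 3 and 2 to 3 (E5 over E4 in developing, 6hPR and 6hPR + FGF2) and 0 to 3, 0 to 1 and 0 to 3 (interactions). In the same order, all genes called ranged over 3969 to 6063, 2632 to 3330, 2388 to 4718, 1549 to 2192, 2937 to 4823, 752 to 1876, 2911 to 4419, 2367 to 3745, 3631 to 4777, 445 to 2285, 245 to 713 and 39 to 1990.

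Replicate numbers did not pair the libraries: over 45 pairs of groups and numbers the correlation of deviations ran from −0.26 to 0.52 (median 0.014), 11 exceeded 0.1, and 16 were highest with their own number. With the replicate block, *SOX2* in E5 over E4 developing RPE (adjusted p = 0.056), *SOX3* in E4 6hPR + FGF2 over 6hPR (0.054) and *SOX11* in E5 6hPR + FGF2 over 6hPR (0.059) lost their calls, and *SOX8* in E4 6hPR over developing gained one (−0.69, adjusted p = 0.046), with no other call changed.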
